A study of Mus musculus with 12 samples.

Results

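The transcripts described here belong to 42 genes that carry a cell from the end of interphase through mitosis, a named set that covers entry into mitosis, the mitotic kinases, the spindle, the spindle checkpoint, exit from mitosis and cytokinesis. They were taken by gene symbol from a table of 17714 genes measured in mouse liver, and all 42 were found there. The table holds 12 livers of female mice aged 3 weeks, the age of weaning, with 6 Lcorl knockout (KO) livers set against 6 wild-type (WT) livers. The knockout is a global one, so it is not limited to hepatocytes. The sources used here name neither the allele nor the strain, and do not say whether the animals were littermates. Each library carries its own animal number. Values are normalized counts, reads per gene divided by 1 factor per library.

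Mitosis starts when cyclin-dependent kinase 1, bound to A- and B-type cyclins, becomes active. Mitotic kinases and motor proteins then build the spindle, the spindle checkpoint holds the cell until every kinetochore is attached, and an ubiquitin ligase, the anaphase-promoting complex, destroys cyclin B and securin so that chromatids part and the cell divides. Most of these genes are transcribed late in the cycle, under the MuvB complex together with B-Myb and FOXM1, and are nearly silent in resting cells. The liver of a mouse at weaning is still growing, and some of its hepatocytes and other cells still divide, whereas the adult liver is largely at rest.

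The targeted transcript checked the labels. Lcorl was listed at 0 in 5 KO livers and at 2.83 in KO 5, against 234 to 308 normalized counts in WT livers. The hepatocyte transcript Alb averaged 2663835 normalized counts in KO livers and 2877695 in WT livers. Whole reads could be recovered for 11 libraries, which held 27692285 to 31296485 reads in 5 KO livers and 21769795 to 28655120 in the 6 WT livers; for KO 2 the reads were not recovered. Traces of other tissue were present in KO 2, where the pancreas transcript Reg1 measured 126 normalized counts and was listed at 0 in every other liver, and in WT 6, where 3 fat markers summed to 185 normalized counts against at most 3.11 in each other liver.

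All 42 mitotic transcripts had lower average levels in KO livers than in WT livers. The median log2 fold change, KO over WT, was −1.40, and the values ran from −1.72 for Ccnb1 to −0.42 for Kif23. Over the 13569 genes tested, the median was 0.01. In the median gene of the set, the KO mean was 41.5% of the WT mean. Of the 42, 7 fell past an adjusted p of 0.05 and 0 rose (limma on log2(normalized count + 1), Benjamini-Hochberg adjustment over all tested genes), namely Ccna2, Aurka, Nek2, Birc5, Mad2l1, Kif4 and Spag5. That is 16.7% of the set, beside 2.68% of all tested genes called lower. A further 20 lay at an adjusted p between 0.05 and 0.10 and 15 at or above it, while 41 had an unadjusted p under 0.05, beside 12.4% of all tested genes that were lower at that level. In either direction, 3177 of the 13569 tested genes had an unadjusted p under 0.05. In the authors' deposited table, 25 of the 42 had an adjusted p under 0.05 and were lower in KO, beside 4.76% of the genes with an adjusted p there. The set was chosen with earlier results of these data known, and no excess over these shares was tested. The deposited log2 fold changes were much smaller in size for some genes, at −0.121 for Ccnb1 and −0.106 for Mki67, against −1.72 and −1.35 in limma. For others they were nearer, as for Aurka at −1.368 against −1.61. The reason was not tested. These are whole livers, so fewer dividing cells and less of each transcript per dividing cell cannot be told apart.

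**Figure D1:**
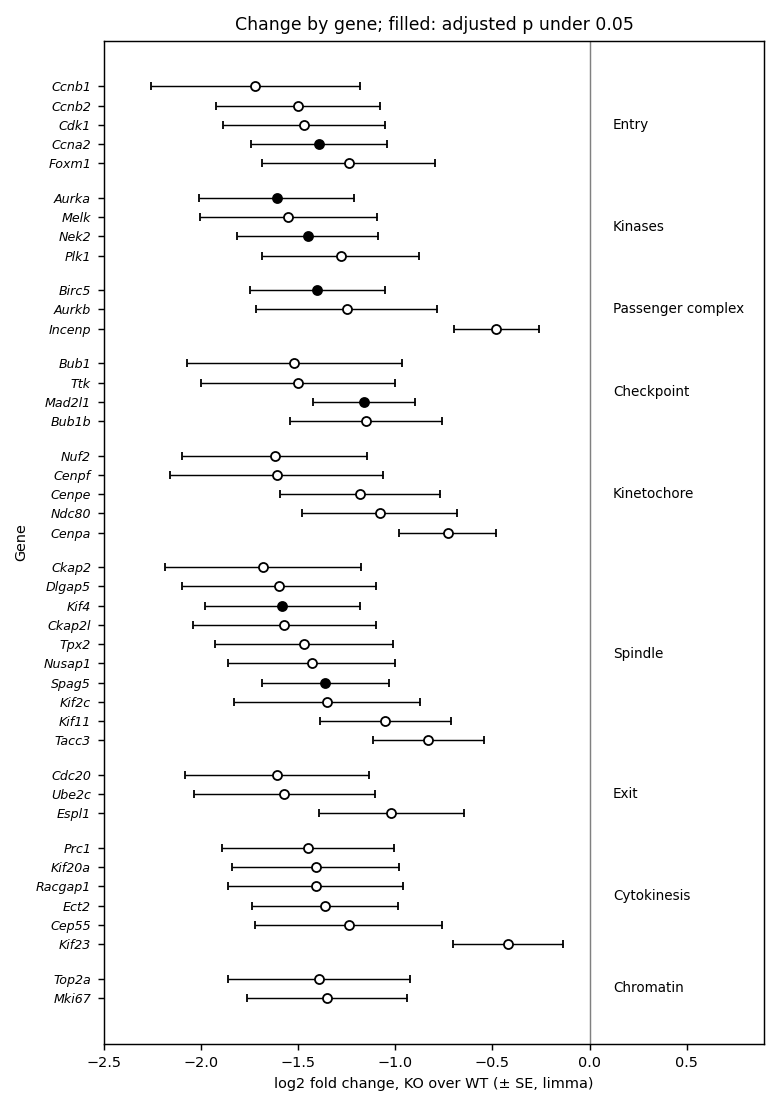
Log2 fold change of each of the 42 genes, KO over WT, with its standard error from limma, in order of role. Every point lies left of 0, and the filled points are the 7 genes with an adjusted p under 0.05.

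The count of 7 moved with single animals, while the direction held in every refit of all or most of these livers. Within runs of animal numbers, described below, it did not hold for every gene. Each of the 42 genes was lower in KO under each of 25 alternatives in which it was tested. With 1 library left out, the number called was 26 without KO 6, 17 without KO 3, 11 without WT 6, 3 without KO 5 and 1 without KO 2, where 4.14%, 2.70%, 3.91%, 2.23% and 1.97% of all tested genes were called lower. It was 0 in limma without KO 1, KO 4, WT 1, WT 2, WT 3, WT 4 or WT 5, with 39 to 41 genes still at an unadjusted p under 0.05. In those fits the share of all tested genes called lower was 1.26% with KO 1 left out and 1.08% with KO 4 left out, and for WT 1 to WT 5 in turn it was 1.27%, 1.41%, 1.19%, 1.62% and 1.26%. None of the 7 therefore kept its call in all 12 of these fits, and their highest adjusted p lay between 0.0729 for Mad2l1 and 0.0956 for Kif4. With KO 2 and WT 6 left out together, the livers with traces of pancreas and fat, the count was 8, the 7 genes and Cdk1, beside 3.78% of all tested genes. On recovered reads without KO 2, DESeq2 called 22 of the 42 lower, beside 4.89% of its genes, and edgeR called 0, beside 1.91% of its genes, with 35 at an unadjusted p under 0.05 and a smallest adjusted p of 0.0553.

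The 6 KO livers were far from alike. Averaged over the 42 genes, the log2 difference from the WT mean was lowest in KO 2 (−2.65) and KO 1 (−2.22), intermediate in KO 4 (−1.46) and KO 5 (−0.96), and highest among KO livers in KO 3 and KO 6 (−0.35 each), against 0.96 in WT 1, 0.08 in WT 2, 0.05 in WT 3, −0.33 in WT 4, −0.16 in WT 5 and −0.60 in WT 6. KO 1, KO 2 and KO 4 were the 3 lowest livers in 38 of the 42 genes, and KO 1 and KO 2 lay below every WT liver in all 42. KO 3 and KO 6 sat inside the WT range in 37 and 38 genes, so the groups overlapped in 41 of 42. On the WT side, WT 1 was the highest of the 12 livers in all 42 genes and WT 6 was the lowest WT liver in 30. The spread within the group was wider in KO than in WT for all 42 genes, with a median SD of 1.03 in KO and 0.562 in WT on the log2 scale. The difference from the WT mean in KO 2 ran from −3.94 for Ccnb1 to −0.75 for Incenp.

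**Figure D2:**
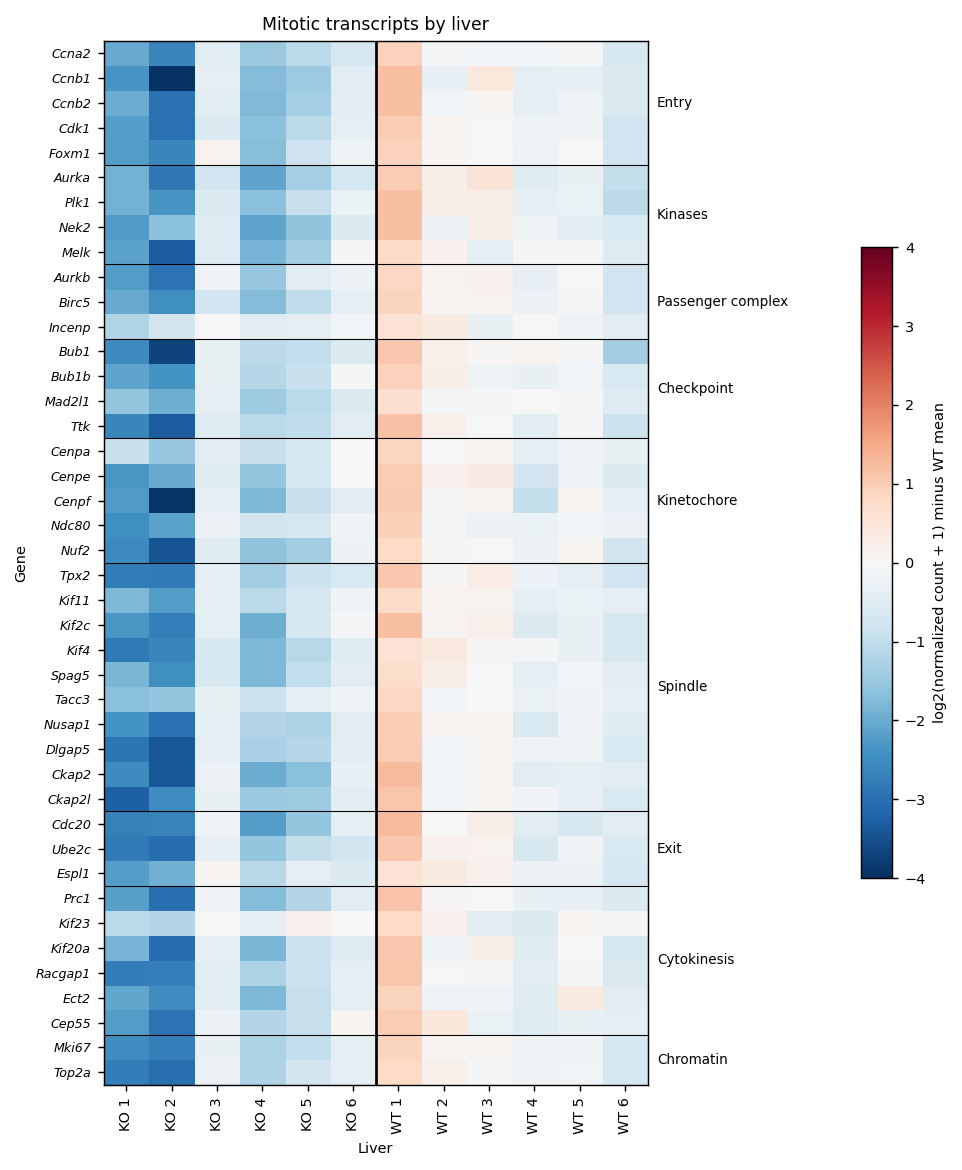
Level of the 42 genes (rows, grouped by role) in each liver (columns, KO left and WT right), as the difference of log2(normalized count + 1) from the WT mean. KO 1 and KO 2 are the darkest blue columns, KO 3 and KO 6 are close to the WT livers, and WT 1 is the red column.

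Animal numbers fall into 4 runs separated by gaps of at least 10, though the labels do not say what a run stands for. In the run that holds KO 1 and WT 1, the median KO minus WT difference over the 42 genes was −3.28 on the log2 scale, and all 42 were lower. In the run of KO 2, KO 3, KO 4 and WT 4 the median was −1.22, with 41 lower and 1 higher. In the run of KO 5, KO 6, WT 5 and WT 6 the median was −0.29, with 36 lower and 6 higher, and differences from −0.60 to 0.13. The remaining run holds WT 2 and WT 3 alone. With the runs as a block, limma called 0 of the 42, with 24 at an unadjusted p under 0.05 and a smallest adjusted p of 0.137, beside 0.715% of all tested genes called lower.

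Entry into mitosis was represented by the cyclins Ccna2, Ccnb1 and Ccnb2, the kinase Cdk1 that they activate, and the transcription factor Foxm1. Ccna2, at chr3:36564865-36572150, encodes cyclin A2, which acts in S phase and at mitotic entry. It measured 76.2, 198 and 358 normalized counts at the lowest, median and highest in KO livers, against 310, 455 and 906 in WT livers. All KO livers but KO 3 lay below the lowest WT liver, WT 6. Ccna2 fell 2.62-fold (207 ± 108 in KO and 506 ± 205 in WT, SD, n = 6 each; limma adjusted p = 0.0432). Its exons share 12.5% of their length with Exosc9 on the opposite strand, and whether reads were counted by strand is not stated in the sources used here, which leaves part of its count uncertain. The B-type cyclins did not pass, although Ccnb1 had the lowest log2 fold change of the set (−1.72, SE 0.537, limma adjusted p = 0.0831). Ccnb1 ranged from 6.93 to 92.7 normalized counts in KO livers and from 81.0 to 281 in WT livers. Ccnb2 and Cdk1 had log2 fold changes of −1.50 and −1.47 (limma adjusted p = 0.0605 and 0.0633). Ccnb2 ranged from 26.7 to 163 normalized counts in KO livers and from 144 to 504 in WT livers. Cdk1 ranged from 43.6 to 274 in KO livers and from 202 to 711 in WT livers. Foxm1, itself an activator of many of the other genes, had a log2 fold change of −1.24 (limma adjusted p = 0.121), with 21.8 to 154 normalized counts in KO livers and 81.0 to 262 in WT livers. In Foxm1, KO 3 lay above the WT mean by 0.15 on the log2 scale.

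Among the mitotic kinases, the centrosomal kinases Aurka and Nek2 fell. Aurka, the Aurora A kinase that matures centrosomes and helps build the spindle, lies at chr2:172356190-172370535. It measured 22.8, 56.2 and 106 normalized counts at the lowest, median and highest in KO livers, against 87.7, 171 and 346 in WT livers. KO 3 and KO 6 lay above WT 6, and the other 4 KO livers lay below all WT livers. The fall was 3.05-fold (63.6 ± 34.0 in KO and 190 ± 94.3 in WT, SD, n = 6 each; limma adjusted p = 0.0409), the largest among the 7 called genes. Nek2, at chr1:191821444-191833050, encodes a kinase that frees the paired centrosomes from each other. It measured 48.7, 76.7 and 167 normalized counts in KO livers at the lowest, median and highest, against 156, 205 and 557 in WT livers. KO 3 and KO 6 again reached into the WT range. Nek2 fell 2.74-fold (97.7 ± 53.1 in KO and 265 ± 150 in WT, SD, n = 6 each; limma adjusted p = 0.0416). Plk1, the Polo-like kinase needed at nearly every step of mitosis, had a log2 fold change of −1.28 (limma adjusted p = 0.0863), with 19.8 to 88.6 normalized counts in KO livers and 51.5 to 245 in WT livers. Melk, a kinase whose transcript marks dividing cells, had one of −1.55 (limma adjusted p = 0.0702), with a median of 18.5 normalized counts and a highest of 54.8 in KO livers, against a median of 58.2 and a highest of 98.8 in WT livers.

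The chromosomal passenger complex corrects faulty attachments and later acts in cytokinesis, and of its 3 genes in the set 1 fell. Birc5, survivin, the subunit that helps bring the complex to the centromere, lies at chr11:117849251-117855743. It measured 49.5, 110 and 209 normalized counts at the lowest, median and highest in KO livers, against 162, 277 and 511 in WT livers. KO 6 alone exceeded the lowest WT liver, with KO 3 just below it. Birc5 fell 2.64-fold (118 ± 61.8 in KO and 294 ± 118 in WT, SD, n = 6 each; limma adjusted p = 0.0410). Aurkb, the catalytic subunit, had a log2 fold change of −1.25 (limma adjusted p = 0.133), with 16.8 to 125 normalized counts in KO livers and 80.1 to 246 in WT livers. Incenp, the scaffold, had a log2 fold change of −0.48 (SE 0.219, limma adjusted p = 0.211), with 96.3 to 223 normalized counts in KO livers and 163 to 334 in WT livers, and with Kif23, Cenpa and Tacc3 it is 1 of the 4 genes with a log2 fold change above −1.

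In the spindle checkpoint, Mad2l1 fell, and it had the smallest p of the 42. It encodes Mad2, which with Cdc20 and BubR1 forms the inhibitor of the anaphase-promoting complex, and lies at chr6:66535390-66547220. It measured 79.2, 131 and 245 normalized counts at the lowest, median and highest in KO livers, against 219, 301 and 501 in WT livers. Only KO 3 lay above the lowest WT liver. Mad2l1 fell 2.23-fold (150 ± 64.3 in KO and 322 ± 94.0 in WT, SD, n = 6 each; limma adjusted p = 0.0294). The checkpoint kinases Bub1 and Ttk did not pass, with log2 fold changes of −1.52 (SE 0.553) and −1.50 (SE 0.499) and limma adjusted p values of 0.122 and 0.0984. Bub1 ranged from 5.94 to 72.3 normalized counts in KO livers and from 33.4 to 187 in WT livers, and Ttk from 5.94 to 51.1 in KO livers and from 37.2 to 155 in WT livers. Bub1b, which encodes BubR1, had a log2 fold change of −1.15 (limma adjusted p = 0.103), with 26.7 to 140 normalized counts in KO livers and 95.3 to 276 in WT livers.

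None of the 5 kinetochore genes passed the threshold in limma. All 5 had an unadjusted p under 0.05, beside 12.4% of all tested genes that were lower at that level. Nuf2, which with Ndc80 couples kinetochores to microtubules, had the smallest p among them. It measured 8.91, 37.6 and 90.4 normalized counts at the lowest, median and highest in KO livers, against 63.9, 108 and 188 in WT livers. KO 3 and KO 6 lay in the WT range. The log2 fold change of Nuf2 was −1.62 (SE 0.475, limma adjusted p = 0.0706). The log2 fold change was −1.08 for Ndc80, −1.18 for the kinesin gene Cenpe and −1.61 for the large kinetochore protein gene Cenpf (limma adjusted p = 0.128, 0.109 and 0.103). Ndc80 ranged from 9.32 to 49.3 normalized counts in KO livers and from 45.9 to 109 in WT livers. Cenpe ranged from 17.6 to 93.2 in KO livers and from 53.5 to 187 in WT livers, and Cenpf from 6.93 to 94.4 in KO livers and from 61.2 to 250 in WT livers. KO 3 or KO 6 was the highest KO liver in each. Cenpa, the histone variant that marks centromeres, had a log2 fold change of −0.73 (limma adjusted p = 0.103), with 93.0 to 268 normalized counts in KO livers and 205 to 489 in WT livers.

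Of the 10 spindle genes, Kif4 and Spag5 fell. Kif4, at chrX:100625737-100727214, encodes a chromosome-bound kinesin. It measured 13.5, 38.0 and 74.0 normalized counts at the lowest, median and highest in KO livers, against 65.8, 101 and 155 in WT livers. Only KO 6 lay above WT 6. The fall was 2.99-fold (40.8 ± 25.5 in KO and 107 ± 32.8 in WT, SD, n = 6 each; limma adjusted p = 0.0439), and 15.1% of the exon length of Kif4 is shared with Pdzd11 on the opposite strand. Spag5, at chr11:78301529-78322457, encodes astrin, which steadies kinetochore fibres. It measured 19.8, 43.7 and 81.3 normalized counts at the lowest, median and highest in KO livers, against 82.9, 107 and 183 in WT livers. It was the gene of the 42 whose groups did not overlap, with KO 6 the highest KO liver and WT 6 the lowest WT liver. Beside this 1 gene of 42, 1.66% of all tested genes had every KO liver below every WT liver. Spag5 fell 2.56-fold (48.6 ± 24.9 in KO and 117 ± 37.8 in WT, SD, n = 6 each; limma adjusted p = 0.0369).

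The other 8 spindle genes did not pass in limma. All of them had an unadjusted p under 0.05, beside 12.4% of all tested genes that were lower at that level. Tpx2, which nucleates microtubules and activates Aurora A, had a log2 fold change of −1.47 (limma adjusted p = 0.0820), with 30.7 to 178 normalized counts in KO livers and 127 to 473 in WT livers. Kif11, the motor that pushes spindle poles apart, had a log2 fold change of −1.05 (limma adjusted p = 0.0910), with 41.6 to 178 normalized counts in KO livers and 154 to 337 in WT livers. Kif2c, which shortens microtubules, had a log2 fold change of −1.35 (limma adjusted p = 0.113), with 10.9 to 74.0 normalized counts in KO livers and 49.6 to 181 in WT livers. In all 3 the groups overlapped, and KO 3 or KO 6 was the highest KO liver. Dlgap5, which stabilizes kinetochore fibres, had a log2 fold change of −1.60 (limma adjusted p = 0.0833), with 6.93 to 62.9 normalized counts in KO livers and 53.4 to 170 in WT livers. For Nusap1, which bundles microtubules, the log2 fold change was −1.43 (limma adjusted p = 0.0746), with 19.8 to 124 normalized counts in KO livers and 107 to 322 in WT livers. The related spindle protein genes Ckap2 and Ckap2l had log2 fold changes of −1.68 and −1.57 (limma adjusted p = 0.0734 and 0.0737). Ckap2 ranged from 9.90 to 96.1 normalized counts in KO livers and from 81.6 to 268 in WT livers, and Ckap2l from 13.5 to 113 in KO livers and from 90.6 to 301 in WT livers. Tacc3, which crosslinks kinetochore fibres, had the smallest difference of the 10, a log2 fold change of −0.83 (limma adjusted p = 0.106), with 65.3 to 184 normalized counts in KO livers and 163 to 374 in WT livers.

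**Figure D3:**
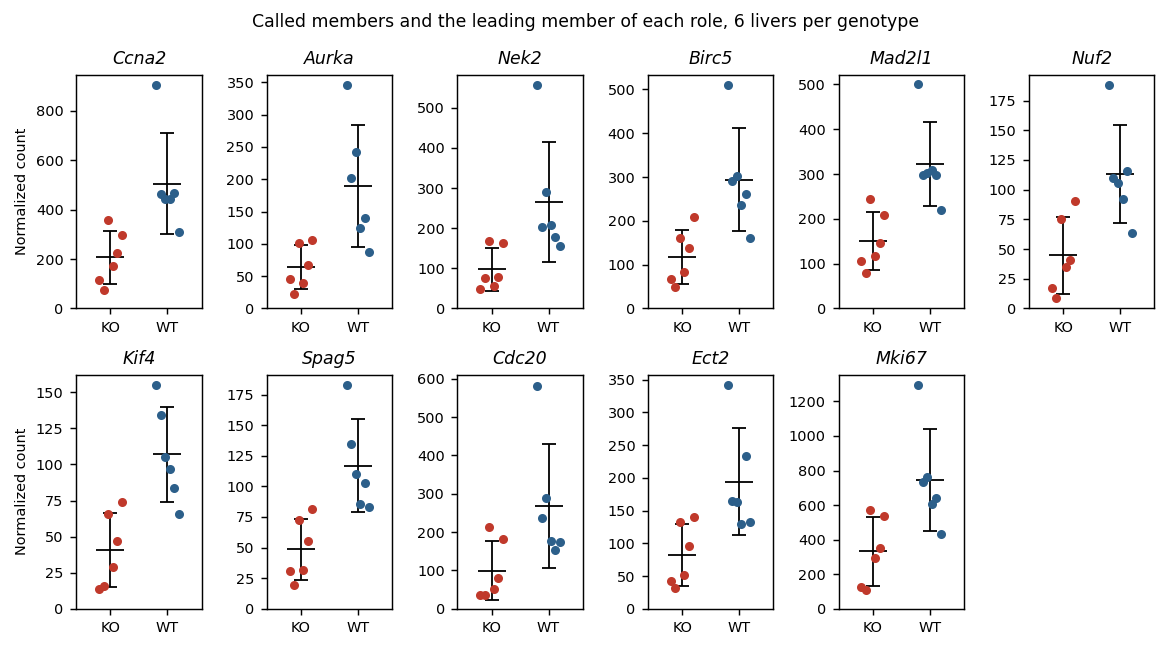
Normalized counts in the KO livers (left) and WT livers (right) of the 7 called genes and of Nuf2, Cdc20, Ect2 and Mki67, the genes with the smallest p in roles with no call; points are livers and bars are mean ± SD (n = 6 each). Spag5 has no overlap between the groups, at 81.3 in the highest KO liver against 82.9 in the lowest WT liver.

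The genes of mitotic exit encode the activator Cdc20, the ubiquitin-conjugating enzyme Ube2c and separase, Espl1, and none of the 3 passed in limma. All 3 had an unadjusted p under 0.05, beside 12.4% of all tested genes that were lower at that level. Cdc20 measured 36.3, 66.0 and 213 normalized counts at the lowest, median and highest in KO livers, against 152, 206 and 582 in WT livers. KO 3 and KO 6 lay above the lowest WT liver, WT 5. Cdc20 had a log2 fold change of −1.61 (SE 0.474, limma adjusted p = 0.0705). Ube2c had a log2 fold change of −1.57 (limma adjusted p = 0.0719), with 18.8 to 128 normalized counts in KO livers and 103 to 341 in WT livers. Espl1, the protease that cuts cohesin, had one of −1.02 (limma adjusted p = 0.127), with 11.4 to 58.7 normalized counts in KO livers and 34.3 to 84.7 in WT livers.

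None of the 6 cytokinesis genes passed in limma either, with 5 at an unadjusted p under 0.05, beside 12.4% of all tested genes lower at that level. Ect2, which activates RhoA at the cleavage furrow, had the smallest p, with 31.7, 73.6 and 141 normalized counts at the lowest, median and highest in KO livers, against 130, 164 and 342 in WT livers. KO 6 and KO 3 were the KO livers inside the WT range. Its log2 fold change was −1.36 (SE 0.375, limma adjusted p = 0.0586). Prc1, which bundles the midzone, and the midzone kinesin gene Kif20a had log2 fold changes of −1.45 and −1.41 (limma adjusted p = 0.0789 and 0.0781). Prc1 ranged from 29.7 to 226 normalized counts in KO livers and from 171 to 548 in WT livers, and Kif20a from 23.8 to 161 in KO livers and from 131 to 428 in WT livers. The centralspindlin partners had unlike values. Racgap1 had a log2 fold change of −1.41 (SE 0.449, limma adjusted p = 0.0896), with 31.1 to 170 normalized counts in KO livers and 147 to 474 in WT livers. Its motor Kif23 had one of −0.42 (SE 0.284, limma adjusted p = 0.411), the smallest difference of the 42. Kif23 measured 41.6 to 108 normalized counts in KO livers and 63.7 to 168 in WT livers, and KO 5 was above the WT mean by 0.18 on the log2 scale. The difference between the 2 was not tested. Cep55, needed for abscission, had a log2 fold change of −1.24 (limma adjusted p = 0.146), with 5.94 to 57.5 normalized counts in KO livers and 37.0 to 108 in WT livers.

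Of the chromosome genes, Mki67, the source of the Ki-67 antigen, measured 106, 323 and 574 normalized counts at the lowest, median and highest in KO livers, against 431, 688 and 1294.5 in WT livers. KO 3 and KO 6 lay in the WT range. Its log2 fold change was −1.35 (SE 0.412, limma adjusted p = 0.0779). Top2a, the topoisomerase that untangles sister chromatids, had a log2 fold change of −1.39 (SE 0.468, limma adjusted p = 0.101), with 65.3 to 452 normalized counts in KO livers and 328 to 931 in WT livers.

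Per kilobase of exon the genes differed widely in level. In KO livers the highest means were 59.8 normalized counts per kilobase for Ccnb2, 53.4 for Cdc20 and 50.8 for Ccna2, and the lowest was 3.36 for Cenpf. In WT livers they were 156 for Ccnb2, 144 for Cdc20 and 124 for Ccna2, and the lowest was 6.65 for Espl1. Besides Ccna2 and Kif4, 6 genes share exon bases on the opposite strand with another gene of the table, from 29.3% of exon length for Kif20a with Cdc23 and 22.8% for Ube2c with Tnnc2 to 2.84% for Cdc20 with Elovl1. Prc1 shares 11.1%, Tacc3 8.14% and Nusap1 4.24%. Tnnc2 averaged only 0.417 normalized counts, against 432 for Cdc23 and 1033.8 for Elovl1. How much of each count came from the overlapping gene was not tested.

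The promoters of called genes are shown because many late cell cycle genes carry the same pair of elements, a CHR element (cell cycle genes homology region), which the MuvB complex contacts, and CCAAT boxes, which bind NF-Y. The sequences are from RefSeq on GRCm38.p6, 250 bases before to 50 after the annotated start, read 5′ to 3′ on the strand of the gene. Capitals mark matches to the CHR letters TTTGAA or TTCGAA and to CCAAT, each searched on both strands, so that TTCAAA and ATTGG are matches on the other strand. Aurka is from chr2:172370521-172370820 on the minus strand. On the plus strand are Nek2 at chr1:191821223-191821522, Birc5 at chr11:117848987-117849286, Mad2l1 at chr6:66534971-66535270, Kif4 at chrX:100625815-100626114 and Spag5 at chr11:78301341-78301640. Ccna2 was not matched.
Aurka: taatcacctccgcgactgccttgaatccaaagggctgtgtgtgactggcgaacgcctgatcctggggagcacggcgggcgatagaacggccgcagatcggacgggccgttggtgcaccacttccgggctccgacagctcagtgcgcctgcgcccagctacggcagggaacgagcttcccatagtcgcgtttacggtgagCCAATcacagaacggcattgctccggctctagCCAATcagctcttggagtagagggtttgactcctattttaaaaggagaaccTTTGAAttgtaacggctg
Nek2: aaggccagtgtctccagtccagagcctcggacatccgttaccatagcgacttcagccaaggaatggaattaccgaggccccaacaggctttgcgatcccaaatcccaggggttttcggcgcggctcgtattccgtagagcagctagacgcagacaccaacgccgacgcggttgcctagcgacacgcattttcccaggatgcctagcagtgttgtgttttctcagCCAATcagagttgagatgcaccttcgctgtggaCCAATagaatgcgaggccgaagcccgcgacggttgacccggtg
Birc5: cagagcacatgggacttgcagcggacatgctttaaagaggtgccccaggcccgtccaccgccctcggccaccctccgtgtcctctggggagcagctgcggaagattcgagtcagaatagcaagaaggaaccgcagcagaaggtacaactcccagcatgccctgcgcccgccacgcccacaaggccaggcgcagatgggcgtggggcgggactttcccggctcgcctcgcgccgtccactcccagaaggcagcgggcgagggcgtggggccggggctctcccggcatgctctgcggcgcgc
Mad2l1: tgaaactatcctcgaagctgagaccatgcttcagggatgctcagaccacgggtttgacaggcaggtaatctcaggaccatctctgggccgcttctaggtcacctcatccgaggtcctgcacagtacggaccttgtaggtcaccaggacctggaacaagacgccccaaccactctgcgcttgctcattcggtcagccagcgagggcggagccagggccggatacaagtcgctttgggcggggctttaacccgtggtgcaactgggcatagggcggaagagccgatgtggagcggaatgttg
Kif4: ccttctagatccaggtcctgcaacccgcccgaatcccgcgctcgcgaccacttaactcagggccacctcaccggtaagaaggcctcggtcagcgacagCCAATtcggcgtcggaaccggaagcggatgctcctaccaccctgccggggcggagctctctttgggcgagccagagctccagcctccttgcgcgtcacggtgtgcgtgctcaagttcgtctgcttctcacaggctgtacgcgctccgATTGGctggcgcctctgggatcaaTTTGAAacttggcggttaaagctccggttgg
Spag5: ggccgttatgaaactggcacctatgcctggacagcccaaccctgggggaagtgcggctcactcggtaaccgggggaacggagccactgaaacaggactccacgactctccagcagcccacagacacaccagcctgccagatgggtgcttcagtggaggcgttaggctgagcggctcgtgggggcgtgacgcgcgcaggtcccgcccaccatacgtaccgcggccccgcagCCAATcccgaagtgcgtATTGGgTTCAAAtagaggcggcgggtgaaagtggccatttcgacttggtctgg

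Aurka, Kif4 and Spag5 each held 1 CHR match and 2 CCAAT matches, Nek2 held 2 CCAAT matches, and neither motif was matched in the windows of Birc5 and Mad2l1. The Mad2l1 window ends at 66535270, before the GENCODE gene start at 66535390. The end of that window was not found in a transcript of the gene on its strand, so the lack of a match in Mad2l1 is uncertain. Of the 42 genes, 35 were matched to a promoter. Among these 35, 74.3% held a CHR match, 74.3% a CCAAT match and 65.7% both, against 21.7%, 41.1% and 8.61% of all 27025 genes with a promoter and 16.6%, 42.9% and 6.78% of the 10131 tested ones. A CHR match at 50 bases before the start or later was present in 65.7% of the 35, against 6.12% of all promoters. No CHR match overlapped a CCAAT match in these promoters. The median log2 fold change was −1.45 in the 23 genes with both and −1.38 in the 12 without both. Over the other tested genes, the median was −0.01 in 664 with both motifs and 0.01 in 4916 with neither.

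**Figure D4:**
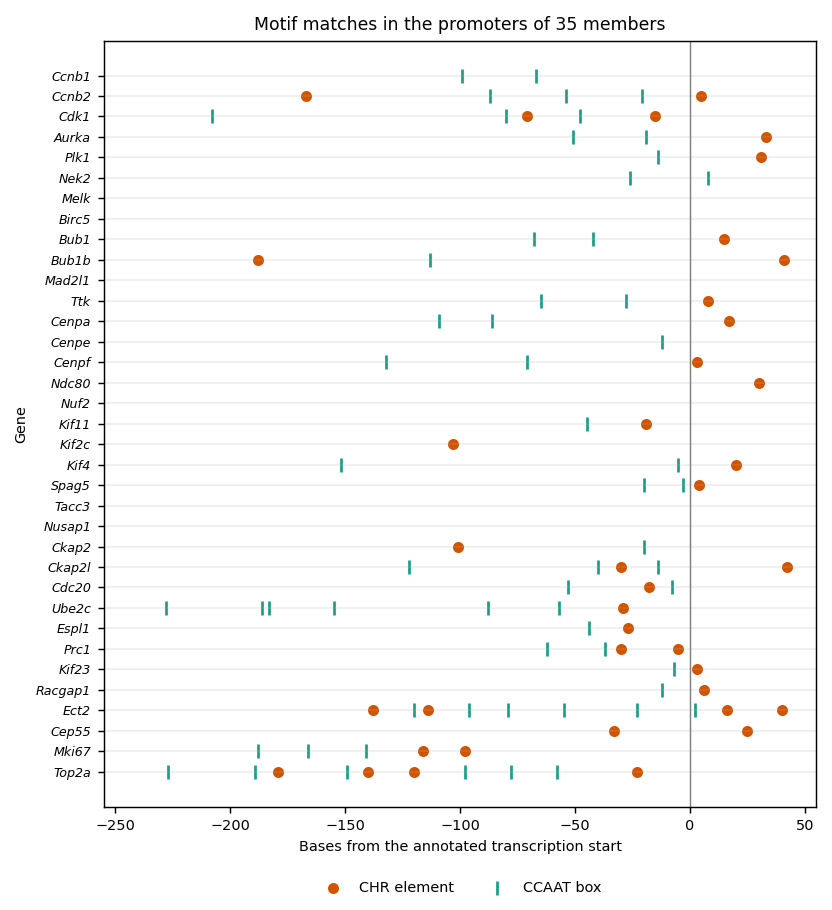
Position of CHR matches (circles) and CCAAT matches (bars) in the promoters of 35 genes, in bases from the annotated start, with genes in order of role. Of the 35 genes, 65.7% have a circle at 50 bases before the start or later, and the rows of Melk, Birc5, Mad2l1, Nuf2, Tacc3 and Nusap1 are empty.

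Genes around the mitotic set were read from 10 further lists. Of 172 tested genes in them, 145 (84.3%) were lower in KO and 11 (6.4%) fell in limma, beside 48.2% lower and 2.68% called lower among all tested genes. With 1 library left out, the number called lower was 36 without WT 6, 27 without KO 6, 24 without KO 3, 9 without KO 5, 3 without KO 2 or WT 2, 1 without WT 3 or WT 5 and 0 in limma without KO 1, KO 4, WT 1 or WT 4, where 81 to 89 genes had an unadjusted p under 0.05. In these fits 3.91%, 4.14%, 2.70% and 2.23% of all tested genes were called lower without WT 6, KO 6, KO 3 and KO 5, and 1.08% to 1.97% without the others. None of the 11 kept its call in all 12 of these fits. Among 35 other kinetochore genes, 32 were lower and 3 fell, with a median log2 fold change of −0.74. These were Cenpq and Cenpk, of the constitutive centromere network (log2 fold changes −0.74 and −0.77, limma adjusted p = 0.0268 and 0.0422), and Oip5, which helps load the centromeric histone (log2 fold change −1.68, limma adjusted p = 0.0401) and shares 172 exon bases with Nusap1. All 21 other spindle and cytokinesis genes were lower, with a median log2 fold change of −1.19, and Cdca3 fell (log2 fold change −1.80, limma adjusted p = 0.0409), while Kif22 and Cdca2 did not pass (limma adjusted p = 0.0530 and 0.0560). Among 15 entry regulators, 12 were lower, with a median log2 fold change of −0.38. Ccnf, cyclin F, fell (log2 fold change −0.80, limma adjusted p = 0.0477), and the phosphatase gene Cdc25c, which activates the mitotic kinase, had a log2 fold change of −1.98 (limma adjusted p = 0.0690).

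Differences were small among genes of the anaphase-promoting complex and of cohesin, the ring that holds sister chromatids together. The 14 core subunits of the anaphase-promoting complex had a median log2 fold change of −0.01 and a range of −0.19 to 0.13, with 0 called in limma and 1 at an unadjusted p under 0.05. The 8 cohesin genes had a median log2 fold change of −0.11, with 0 called in limma and 2 at an unadjusted p under 0.05. Of all 13569 tested genes, 3177 reached that unadjusted level in either direction. Condensin genes, whose products compact mitotic chromosomes, were lower in all 8, with a median log2 fold change of −0.86. Smc4 fell (log2 fold change −0.58, limma adjusted p = 0.0310), while Smc2 had a log2 fold change of −0.98 (limma adjusted p = 0.0516). Ncapg, the neighbour of Lcorl, measured 11.9 to 83.3 normalized counts in KO livers and 75.3 to 220 in WT livers (log2 fold change −1.56, SE 0.415, limma adjusted p = 0.0508). It shares 944 exon bases, 13.4% of its exon length, with Lcorl on the opposite strand, and the share of its count that came from Lcorl was not tested.

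Among 19 genes of MuvB, the Rb family and E2F, the median log2 fold change was −0.14, and Lin9 and E2f8 fell. Lin9, a MuvB subunit, had a log2 fold change of −0.66 (limma adjusted p = 0.0276). E2f8, an atypical E2F linked to polyploidy in hepatocytes, measured 19.7, 60.6 and 83.1 normalized counts at the lowest, median and highest in KO livers, against 85.8, 139 and 218 in WT livers, with no overlap (log2 fold change −1.48, SE 0.362, limma adjusted p = 0.0391). Its partner E2f7 had a log2 fold change of −0.89 (limma adjusted p = 0.0982). Of 13 tested G1 cyclins, kinases and inhibitors, 8 were lower and 0 were called in limma. An unadjusted p under 0.05 was reached by 5 of them, beside 3177 of all 13569 tested genes in either direction. Cyclin D1, Ccnd1, measured 496 to 3626 normalized counts in KO livers and 2717 to 5873 in WT livers (log2 fold change −1.06, SE 0.386, limma adjusted p = 0.122). The inhibitor Cdkn1a, p21, varied widely in both groups, from 85.8 to 776 normalized counts in KO livers and from 80.1 to 1099.3 in WT livers (limma adjusted p = 0.608).

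All 28 replication genes were lower, with a median log2 fold change of −0.67, and 3 fell. These were the polymerase subunit genes Pola1 and Pole and the ribonucleotide reductase subunit gene Rrm2 (log2 fold changes −0.68, −0.87 and −1.76; limma adjusted p = 0.0357, 0.0468 and 0.0409). Of 11 tested p53 targets, 6 were lower and 0 were called in limma. An unadjusted p under 0.05 was reached by 3 of them, beside 3177 of all 13569 tested genes in either direction. The antiproliferative gene Btg2 averaged 1628 ± 1064 normalized counts in KO livers and 727 ± 232 in WT livers (SD, n = 6 each; limma adjusted p = 0.108).

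**Figure D5:**
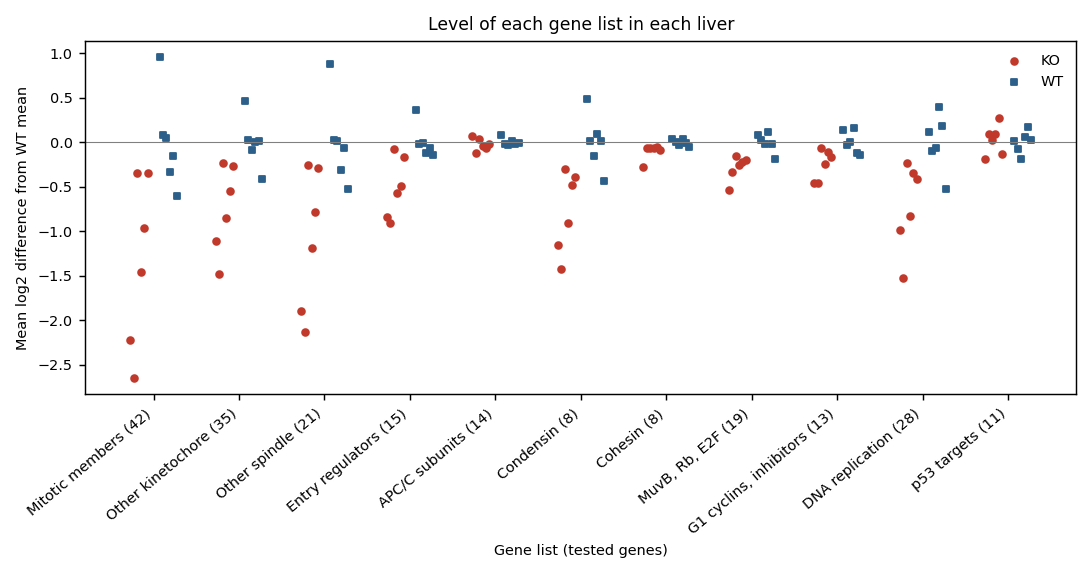
Mean log2 difference from the WT mean over the tested genes of each list, for each KO liver (circles, left) and WT liver (squares, right), with the number of genes in parentheses. The 42 mitotic genes run from −2.65 to −0.35 in KO livers and from −0.60 to 0.96 in WT livers, and the anaphase-promoting complex subunits from −0.12 to 0.07 in KO livers and from −0.03 to 0.08 in WT livers.

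Markers of other cells that divide or that share the liver at weaning were read beside the mitotic set. Erythroid markers, which would mark remaining blood formation, summed to 1392.4 to 4485.8 normalized counts in KO livers (median 2077) and to 1686.0 to 7522.2 in WT livers (median 3942.2). Of 9 tested erythroid genes, 8 were lower in KO and 0 were called in limma. An unadjusted p under 0.05 was reached by the globin gene Hbb-bt, which was lower (log2 fold change −1.04), and by Klf1, the erythroid transcription factor gene, which was higher (log2 fold change 0.48). Among KO livers the erythroid sum was highest in KO 6 (4485.8) and KO 3 (2971.1), which were also the highest KO livers for the mitotic set. Among WT livers it was highest in WT 2 and lowest in WT 4, while the mitotic set was highest in WT 1 and lowest in WT 6. Stellate markers were lower in 7 of 7 and endothelial markers in 5 of 7, beside 48.2% of all tested genes, but most differences were small. The median log2 fold change was −0.12 for stellate markers (−0.84 to −0.02) and −0.21 for endothelial markers (−0.56 to 0.02). Stellate markers summed to 8622.0 to 13252.5 in KO livers and 11587.7 to 14880.5 in WT livers. Endothelial markers summed to 4572.6 to 10117.8 in KO livers and 6845.0 to 11357.9 in WT livers. Both sums were lowest in KO 1 and KO 2 among KO livers, at 8622.0 and 9947.5 for stellate and 4572.6 and 8299.5 for endothelial markers, and these were the lowest livers for the mitotic set too. Among WT livers the endothelial sum was lowest in WT 6, the lowest WT liver for the mitotic set, and the stellate sum in WT 4. In limma 0 genes of either list were called, and 2 of each had an unadjusted p under 0.05. At that unadjusted level, which 2 erythroid genes also reached, lay 3177 of all 13569 tested genes in either direction. Hepatocyte markers summed to 3718941.7 to 4559649.8 in KO livers and 3957275.9 to 4538188.4 in WT livers, with 3 of 8 lower. Kupffer cell markers were lower in 1 of 7, T and NK cell markers in 2 of 7, B cell and plasma cell markers in 4 of 6, neutrophil markers in 1 of 7 and bile duct markers in 3 of 5, with 0 called in limma in these lists and at most 1 gene of each at an unadjusted p under 0.05. The neutrophil and myeloid markers stood out in KO 4, where they summed to 6288.4 normalized counts. In the other livers this sum was 582 to 1601.8. The pancreas markers did not move together. Cela1, which was present in every liver, was called lower (128 to 213 normalized counts in KO livers and 273 to 503 in WT livers; limma adjusted p = 0.00533). Reg1 and Ctrb1 measured 126 and 26.7 in KO 2 and were at 0 in all WT livers. No marker gene was at 0 in all livers, though the fat marker Adipoq was at 0 in all KO livers, and the part of these cell types in the lower mitotic transcripts was not tested.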

How the data were processed

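Liver RNA of 12 mice was sequenced with a total RNA kit, and 1 table of gene signal was deposited by the authors as normalized counts, reads divided by 1 factor per library. Per the submitters' processing notes, the build was mm10 and the tools were STAR, featureCounts, FastQC and DESeq2; the sources used here state no versions, annotation or strand setting. A second deposited table holds the authors' own KO and WT comparison, with log2 fold changes and p-values, raw and adjusted, for each gene.

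Genotypes were compared with limma 3.58.1 in R 4.3.3 on log2(normalized count + 1), with the prior variance following mean expression, for 13569 genes whose mean reached 10; all 42 mitotic genes passed, with means of 42.8 to 538. Two-sided p-values were adjusted by the Benjamini-Hochberg method over all of them. Fold changes are from the difference of group means on this scale, which understates those of low genes. They are not ratios of the mean counts printed beside them. edgeR 4.0.16 and DESeq2 1.42.0 were run on whole reads of 11 libraries, where 100% of values came out whole within 0.001 reads. The procedure was also run on simulated counts, with the spread taken from WT livers and each gene drawn on its own. The mitotic genes had a wider spread in KO livers and moved together, so that run does not bear on their calls. The mitotic genes and the lists around them were chosen with earlier results of these data known. Per-liver values were given for genes past the threshold and for the gene with the smallest p in each role, and each further list was named by at most its 3 genes of smallest p, together with Ncapg, E2f7, E2f8, Cdkn1a, Ccnd1 and Lcorl; Adipoq, Reg1, Ctrb1, Cela1, Hbb-bt and Klf1 were named after their values were seen. Gene positions are from GENCODE M21 on GRCm38, matched by symbol. The p-values set the difference between genotypes against the spread between these animals within genotype. The main fit did not model the runs of animal numbers. Depth was 21769795 to 31296485 reads in 11 libraries. The lowest single values, near 5 normalized counts, rest on few reads.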

Additional observations from a re-analysis of the deposited data

Results flagged for a closer look

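In 11 of 150 pairs of a named gene and a genotype, 1 liver stood apart from the other 5 of its group by Dixon's criterion on the log2 scale, which chance alone meets in about 5% of groups, and the genes are not independent of each other. In KO livers, the cohesin regulator gene Pds5a was at 305 in KO 1 with 357 next, and Lcorl was at 2.83 in KO 5 and at 0 in the other 5. Of the 11, 8 were the highest value in WT 1, and 6 of the 8 are mitotic genes. WT 1 had 504 normalized counts of Ccnb2 with 228 in the next WT liver, 109 of Ndc80 with 53.4, 374 of Tacc3 with 210, 268 of Ckap2 with 121, 548 of Prc1 with 258, and 474 of Racgap1 with 223. The other genes in WT 1 were the chromokinesin gene Kif22, at 280 with 115 next, and the cohesin gene Rad21, at 2351.4 with 1893.7 next. Pole stood apart in WT 6, at 96.3 with 165 in the nearest WT liver. Without WT 1, limma called 0 of the 42 mitotic genes, with 39 at an unadjusted p under 0.05.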

How the results depend on the processing

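Of 1046 values of the mitotic genes under 25 alternatives, 0 reversed direction; 76 calls were lost and 49 gained. None of 795 values of 32 named genes of other lists reversed. All of these alternatives refit all or most of the same livers. The count of 7 called mitotic genes was 22 with DESeq2 and 0 with edgeR on the reads of 11 libraries, both chosen after seeing the data, 0 with the runs of animal numbers as a block (24 at an unadjusted p under 0.05), and 0 to 26 with 1 library left out. The 11 called genes of the other lists became 37 with DESeq2, 1 with edgeR, 0 with the block (71 at an unadjusted p under 0.05), 19 with library quality weights (3.48% of all tested genes called lower), 17 with a pseudocount of 10 (2.80%), 28 without KO 2 and WT 6 together, and 0 to 36 with 1 library left out. The median log2 fold change over the mitotic genes, −1.40, was −1.61 to −1.13 with 1 library left out and −1.42 to −1.06 otherwise. Within runs, a comparison added after seeing the data, it was −3.28 in the first, with 1 liver per genotype, and −0.29 in the fourth; the cause was not tested. Count tests and TMM on the reads of all 12 libraries were not run. No paired analysis was possible because the labels give the livers animal numbers and no replicate numbers shared between genotypes.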

Other observations

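The mitotic and replication genes ranked the KO livers much alike and the WT livers less so. On the log2 scale, as the mean difference from the WT mean, KO 2 was lowest for both, at −1.52 for the 28 replication genes and −2.65 for the 42 mitotic genes. KO 1 and KO 4 came next for both, at −0.99 and −0.83 for replication and −2.22 and −1.46 for the mitotic genes. KO 3 was the highest KO liver for replication, at −0.23, and measured −0.35 for the mitotic genes. KO 5 measured −0.34 for replication and −0.96 for the mitotic genes, and KO 6 −0.41 for replication and −0.35 for the mitotic genes. WT 1, the highest WT liver for the mitotic genes at 0.96, measured 0.11 for replication. WT 4 was highest for replication, at 0.40, and measured −0.33 for the mitotic genes. WT 6 was the lowest WT liver for both, at −0.53 for replication and −0.60 for the mitotic genes. The replication gene Rrm2 had 276 normalized counts in KO 6, against 250 in WT 6, 833 in WT 4 and 915 in WT 1. Rrm2 was thus highest in WT 1, unlike the mean of its list. These are descriptions of single livers, and no difference between the lists was tested.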
